A study of Mus musculus with 18 samples.

Results

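Integrins are the cell-surface receptors through which cells hold on to the matrix around them, and laminins are the basement membrane proteins that many of them bind. The 41 genes described here are those whose array symbol names an integrin α or β chain, a laminin α, β or γ chain, or matches the same letters, out of 19701 named genes on the arrays. They comprised 17 integrin α genes, 9 integrin β genes, 11 laminin chain genes and 4 genes that encode integrin-binding proteins and matched by their letters alone (Itgb1bp1, Itgb1bp2, Itgb1bp3 and Itgb3bp). Expression was measured on 18 one-colour Agilent arrays of C57BL/6 mouse cells, in 6 groups of 3 arrays each. MEF are embryonic fibroblasts, and iHep are hepatocyte-like cells made from them. iISC denotes induced intestinal stem cells, sampled as budding organoids, and iFIPC induced fetal intestinal progenitor cells, sampled as spherical and budding organoids together. Their native counterparts are crypt, budding organoids of adult intestinal crypts, and FI, fetal intestinal progenitors sampled as spherical and budding organoids. The series title states that the intestinal progenitors were generated from fibroblasts. The labels do not give the factors or vectors used, nor the age or number of donor animals. The 3 iHep titles carry different codes, and whether these are repeats of 1 conversion or separate conversions is not given. The titles of all MEF and iHep arrays are also marked as re-analysis, and those of the organoid arrays are not.

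Each integrin is a pair of 1 α and 1 β chain, and the pair decides the ligand: some bind collagens, some bind the RGD motif of fibronectin and vitronectin, some bind laminins, and a leukocyte set binds other cells. Each laminin is a trimer of 1 α, 1 β and 1 γ chain. In intestinal epithelium the laminin receptors of the α3 and α6 chains and the β4 chain sit at the base of the cells, on laminins that the epithelium and the neighbouring mesenchyme both supply, and the laminin α5 chain is a main component of that basement membrane.

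Arrays 2 and 3 of MEF differed less than any other pair of arrays of 1 group: the SD of their log2 difference over probes was 0.212, against 0.288 to 0.833 for the remaining 17 pairs. The next closest pair was crypt 2 and 3. Relative to the noise between repeated spots, the median squared difference per probe was 1.18 for the MEF pair and 14.8 for the crypt pair. MEF arrays 2 and 3 were therefore treated as 1 sample (their mean), and the crypt arrays were kept apart. This leaves 2 MEF samples and 17 samples in all. The labels do not say whether the arrays of a group came from separate cultures or animals, so the p-values measure the spread between these samples, which may be technical. Changes are differences of mean levels on the log2 scale ± SE of the fit. A level is the log2 of the processed signal relative to the 75th percentile of its array, and it can be compared between samples of a gene but not between genes. Per array, 56.1% to 68.7% of probes were well above background, and the 75th percentile ranged from 714 to 1484 in intensity. A gene is called higher or lower where limma's Benjamini-Hochberg adjusted p, over all genes tested, was under 0.05 and the log2 change was at least 1 in size. Where no array of the dimmer group was well above background, the difference is given as a lower bound. The organoid arrays and the other 6 arrays went through different scanners and Feature Extraction versions, so that array set and cell type cannot be told apart in any comparison of organoids with MEF or iHep. After scaling, 7 spike-in probes were brighter in the MEF and iHep arrays by 0.53 to 1.21 on the log2 scale. Of the 159 calls of members across the 2 array sets, 2 were within 1.21 (Itgb7 in iFIPC against MEF and Itgb1 in iISC against iHep). This shift has the direction of a lower call in organoids, and a call requires a change of at least 1. Taking the shift off could therefore bring larger lower calls under that size, such as Itgav in iFIPC against MEF (-1.71). How many calls would be lost that way was not tested. The labelled cell types carried their markers, with 11 of 11 fibroblast markers well above background throughout MEF, 7 of 7 hepatocyte markers throughout iHep, and 10 of 10 epithelial and 10 of 10 intestinal markers throughout the organoids. All 11 fibroblast markers were also above background on every iHep array, at lower mean levels than in MEF.

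Promoter sequence is shown for 5 members that stand at the ends of the pattern described next: Lamb3 and Itgb6, which were not above background in MEF and high in organoids, Lama2 and Itga8, which were high in MEF and not above background in most organoids, and Itgb1, which was lower in every group than in MEF. The sequences are the 250 bases before the annotated start from RefSeq (GRCm38.p6), written 5′ to 3′ on the gene's strand, and the table held 30 promoters of 27 of the 41 members. Capitals mark the TEAD letters GGAATG on either strand, so that a match on the opposite strand reads CATTCC.
Lamb3, chr1:193301744-193301993, plus strand: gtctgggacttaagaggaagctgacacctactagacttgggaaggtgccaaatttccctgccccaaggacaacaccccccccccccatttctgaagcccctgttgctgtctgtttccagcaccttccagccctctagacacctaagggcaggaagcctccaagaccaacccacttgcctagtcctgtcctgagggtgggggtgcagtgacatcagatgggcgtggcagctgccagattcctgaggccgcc
Itgb6, chr2:60722604-60722853, minus strand: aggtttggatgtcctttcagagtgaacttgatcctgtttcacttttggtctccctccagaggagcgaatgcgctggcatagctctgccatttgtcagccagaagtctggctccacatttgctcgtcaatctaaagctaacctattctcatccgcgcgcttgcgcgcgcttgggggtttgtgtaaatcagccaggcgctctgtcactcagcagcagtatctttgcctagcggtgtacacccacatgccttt
Lama2, chr10:27616943-27617192, minus strand: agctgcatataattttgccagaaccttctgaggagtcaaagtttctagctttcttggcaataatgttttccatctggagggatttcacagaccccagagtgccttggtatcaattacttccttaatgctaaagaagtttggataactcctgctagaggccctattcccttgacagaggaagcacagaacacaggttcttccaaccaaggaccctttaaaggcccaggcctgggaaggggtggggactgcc
Itga8, chr2:12301945-12302194, minus strand: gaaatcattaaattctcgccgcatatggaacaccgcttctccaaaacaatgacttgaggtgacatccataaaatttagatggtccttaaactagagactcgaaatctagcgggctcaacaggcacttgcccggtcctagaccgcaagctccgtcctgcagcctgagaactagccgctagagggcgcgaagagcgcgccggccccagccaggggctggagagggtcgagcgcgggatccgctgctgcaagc
Itgb1, chr8:128685404-128685653, plus strand: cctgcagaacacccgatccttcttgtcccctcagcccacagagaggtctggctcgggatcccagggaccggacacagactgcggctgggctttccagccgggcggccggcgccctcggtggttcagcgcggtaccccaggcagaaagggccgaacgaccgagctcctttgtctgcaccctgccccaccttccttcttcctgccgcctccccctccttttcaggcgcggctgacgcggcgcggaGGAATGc
Of these 5, the Itgb1 promoter held the TEAD letters, 7 bases before the start. A second annotated start of Lamb3, whose window is not printed, held them 167 bases before it. Over the 30 member promoters the TEAD letters occurred in 3 (10%; Itga10, Itgb1 and Lamb3), against 12.6% of 32851 promoters in the table. The AP-1 letters TGANTCA, searched on both strands, occurred in 1 of 30 (3.33%; Itgax), against 6.75% of all. No entry was found for Itga6 or Itgb4.

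Against MEF, members split into a set that was higher and a larger set that was lower. In iHep, 20 of the 34 members tested were called, 7 higher and 13 lower, where 27.6% of all genes tested were called (11.9% higher and 15.8% lower). In iFIPC, 30 of 34 were called, 10 higher and 20 lower, beside 43.5% of all genes (20.2% higher, 23.3% lower). In iISC, 29 of 34 were called, 9 higher and 20 lower, beside 48.4% of all genes (23% higher, 25.4% lower). In FI, 29 of 36 were called, 10 higher and 19 lower, beside 47.1% (23.3% higher, 23.7% lower). In crypt it was 28 of 34, 8 higher and 20 lower, beside 50.3% (24.2% higher, 26.1% lower). A gene entered a comparison when 1 of its groups had it well above background on all arrays, so that a gene present in 1 group alone enters only because it differs. The median log2 change of the members tested was -0.69 in iHep, -1.97 in iFIPC, -2.76 in iISC, -2.04 in FI and -2.64 in crypt, against medians between -0.10 and 0.034 over all genes. With members that were not above background in 1 group set at their bounds, these medians were -0.69, -1.97, -2.27, -2.04 and -2.30. Itga3, Itga6, Itgb4, Itgb6 and Lamb3 were among the members called higher in all 5 comparisons, and the same 12 were called lower in all 5 (Itga8, Itga9, Itga11, Itgav, Itgb1, Itgb2, Itgb5, Itgb1bp1, Lama1, Lama2, Lama4 and Lamb1-1). These 5 comparisons share the MEF samples. Scaling to the median in place of the 75th percentile moved the median of all genes by 0.36 to 0.54 in the 4 organoid comparisons with MEF, and raised the share of calls that were higher, in iISC from 47.6% to 64.4%. The members' split under it was 8 higher and 13 lower in iHep, 11 and 19 in iFIPC, 9 and 20 in iISC, 10 and 19 in FI and 9 and 19 in crypt. MEF 1 lay on slide 1 with the 3 iHep arrays: with slide as a fixed term 18 of the 20 iHep calls held (Lama2 and Lama4 did not), and within that slide 10 did, among them Itga3, Itgb1, Itgb2, Itgb4, Lama1, Lama4, Lama5, Lamb1-1 and Lamb3. MEF and the organoids shared no slide.

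**Figure D1:**
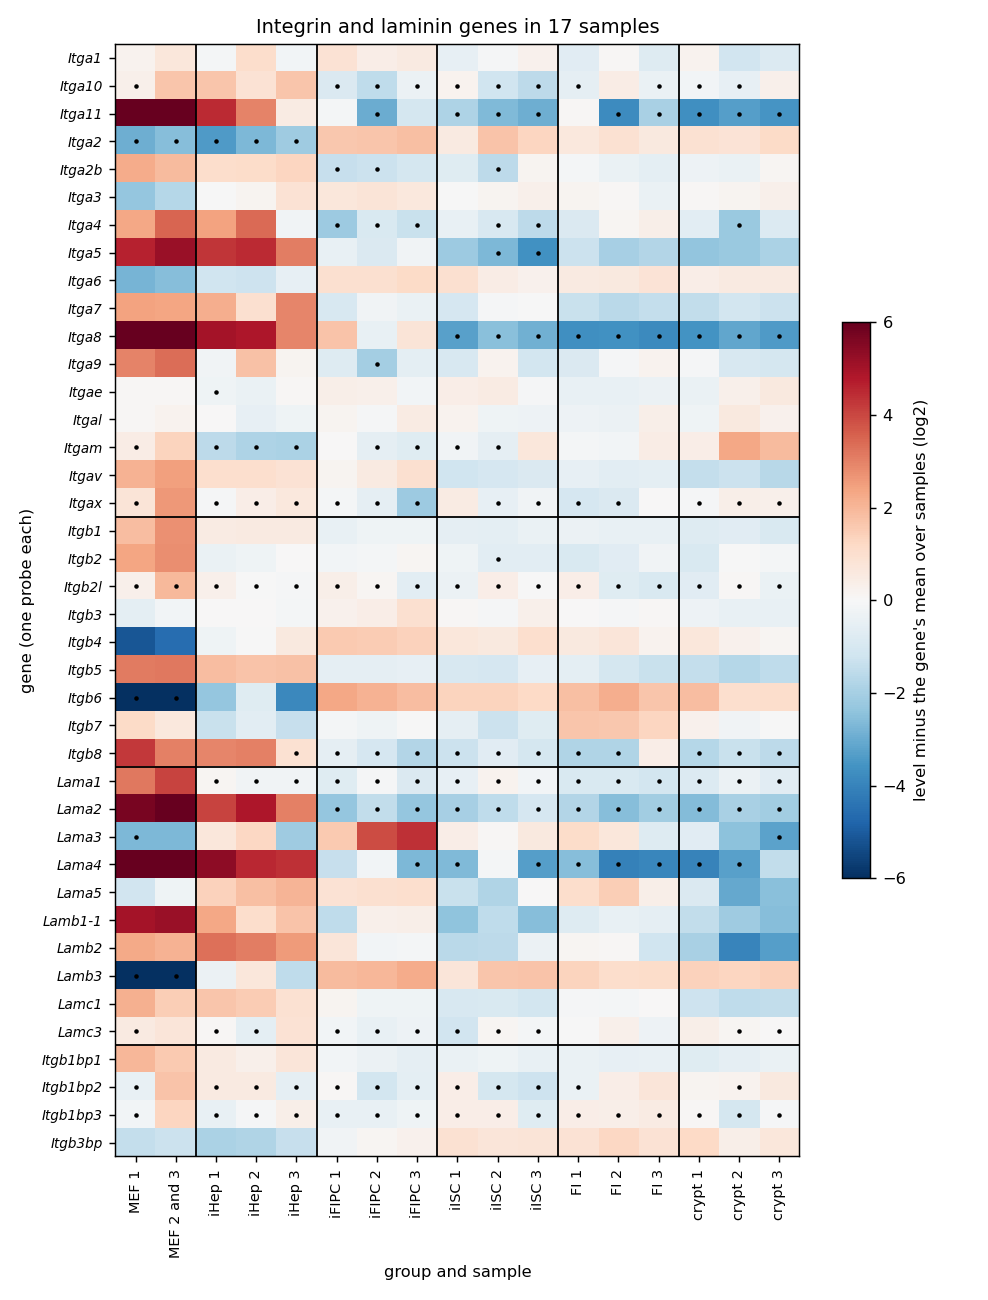
Heat map of the members described (rows, grouped into integrin α, integrin β, laminin and integrin-binding protein genes) in 17 samples (columns). Colour is the level minus the gene's own mean over the samples on the log2 scale, held at 6 in either direction, and black dots mark samples with an array that was not well above background; Itgb4, Itgb6 and Lamb3 are blue in the MEF columns, and Itga8, Itga11, Lama2 and Lama4 are dark red there.

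The laminin receptors were the clearest of the integrins that rose. Itgb4, the β partner of the α6 chain in hemidesmosomes, was at -1.55 and -1.0 in the MEF samples and at 3.32, 3.58 and 4.18 in iHep. In the organoids Itgb4 lay at 5.17, 5.12 and 4.98 in iFIPC, at 4.26, 4.16 and 4.62 in iISC, at 4.2, 4.33 and 3.82 in FI and at 4.26, 3.85 and 3.73 in crypt. Every iHep and organoid sample exceeded both MEF samples, and the log2 change ran from 4.97 ± 0.27 (SE) in iHep to 6.37 ± 0.27 (SE) in iFIPC, with limma adjusted p of at most 1.74e-08. Its probe lies at chr11:115869557-115869616 (mm9). Itga6, the α chain that pairs with β4 or β1 to bind laminins, was at 0.93 and 1.14 in MEF, at 2.51, 2.48 and 3.22 in iHep and at 4.68, 4.68 and 4.86 in iFIPC, at 4.69, 4.15 and 3.96 in iISC, at 4.23, 4.29 and 4.55 in FI and at 4.11, 4.26 and 4.26 in crypt. iHep lay between MEF and the organoids without overlap with either: the log2 change was 1.70 ± 0.24 from MEF to iHep (adjusted p = 9.96e-05), 2.00 ± 0.21 from iHep to iFIPC (adjusted p = 6.30e-06) and 1.53 ± 0.21 from iHep to iISC (adjusted p = 4.40e-05). Itga3, another laminin-binding α chain, was at -1.48 and -0.88 in MEF, at 0.82, 1.01 and 1.69 in iHep and at 1.51, 1.61 and 1.48 in iFIPC, at 0.82, 0.99 and 1.14 in iISC, at 1.01, 0.92 and 0.44 in FI and at 0.89, 1.01 and 1.13 in crypt. It was higher than in MEF in all 5 groups, by 1.97 ± 0.26 in FI to 2.71 ± 0.26 in iFIPC (adjusted p at most 1.90e-05), and iHep overlapped the organoids. Its other probes differed in size: 1 gave 1.98 (FI) to 2.79 (iFIPC) above MEF. The dimmer one, above background on every array, gave 0.16 (FI) to 0.68 (crypt), under the size required for a call.

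Itga7, the laminin-binding α chain best known from muscle, went the other way. It was at 0.69 and 0.60 in MEF, at 0.44, -0.79 and 1.19 in iHep and at -2.72, -1.97 and -2.13 in iFIPC, at -2.74, -1.81 and -1.75 in iISC, at -3.06, -3.36 and -3.18 in FI and at -3.24, -2.83 and -3.03 in crypt. All 12 organoid samples lay below the MEF and iHep samples, and Itga7 fell relative to MEF, with log2 changes from -2.74 ± 0.45 (iISC) to -3.85 ± 0.45 (FI) (adjusted p at most 1.38e-04). The difference between iHep and MEF was -0.36 ± 0.45, with a 95% interval of -1.35 to 0.62, and was not called.

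Another 2 integrin chains known from epithelia were above background in all organoid groups, native and induced, and not in MEF. Itgb6, which pairs with αv in epithelial cells, was not above background in MEF (-8.03 and -8.89) and was at -4.36, -2.75 and -5.89 in iHep. In the organoids Itgb6 lay at 0.26, 0.037 and -0.17 in iFIPC, at -0.72, -0.69 and -0.83 in iISC, at -0.23, 0.15 and -0.38 in FI and at -0.18, -1.04 and -0.98 in crypt. The gene was at least 3.69-fold higher in iHep than in MEF and at least 44.4-fold (iISC) to 76.6-fold (iFIPC) higher in the organoids (adjusted p at most 1.94e-04). With normexp background correction the iHep log2 change was 0.85, under the change of 1 required, and the iHep call was lost. Of the 2 other Itgb6 probes, 1 was above background on 1 iHep array and the other on none. Organoids were in turn above iHep, by 4.38 ± 0.57 in iFIPC and 3.59 ± 0.57 in iISC. Itga2, the α chain of the epithelial and platelet collagen receptor, was above background in organoids alone. Its levels were -7.35 and -6.99 in MEF and -7.82, -7.12 and -6.54 in iHep, none of them well above background, and lay at -2.83, -2.75 and -2.65 in iFIPC, at -3.89, -2.70 and -3.12 in iISC, at -3.80, -3.53 and -3.84 in FI and at -3.52, -3.59 and -3.28 in crypt. It was at least 5.63-fold (FI) to 11.1-fold (iFIPC) higher than in MEF, and at least 7.04-fold (iISC) and 9.93-fold (iFIPC) higher than in iHep (adjusted p at most 1.95e-06). With normexp background correction the Itga2 call against MEF held in iFIPC alone. Its log2 change was then 0.62 in FI, 0.81 in crypt and 0.99 in iISC, under the change of 1 required.

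**Figure D2:**
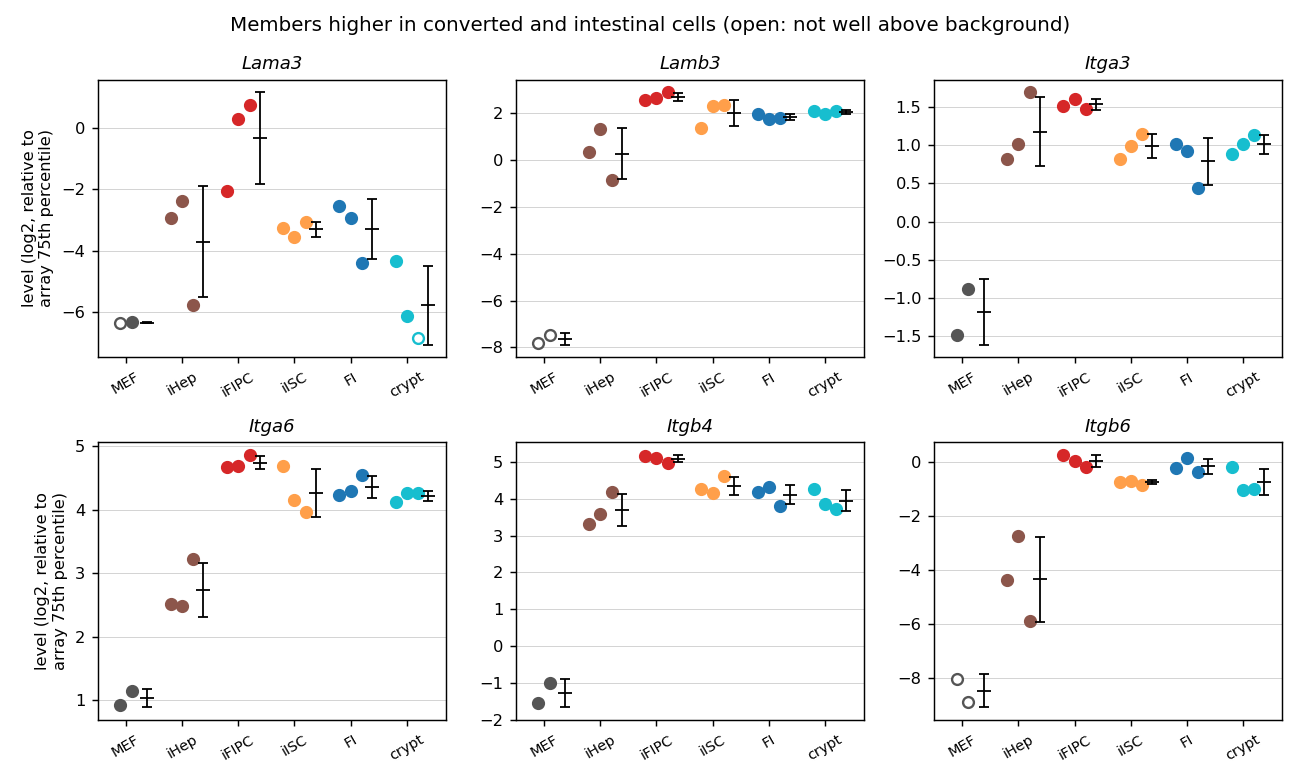
Levels (log2 relative to the array's 75th percentile) of 6 members in each sample of the 6 groups; open circles are samples with an array not well above background, and bars are the group mean and SD (n = 2 in MEF, 3 elsewhere). Each panel has its own scale; Lamb3 and Itgb6 are open circles in MEF, Itga6 and Itgb4 are lowest in MEF, and Lama3 spreads over several log2 units within iHep, iFIPC and crypt.

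Laminin chains of epithelial anchoring sites, α3 and β3, were higher in most groups than in MEF. Lamb3, the β3 chain, was at -7.80 and -7.46 in MEF, not above background, and at 0.33, 1.34 and -0.85 in iHep. In the organoids Lamb3 lay at 2.55, 2.64 and 2.89 in iFIPC, at 1.37, 2.32 and 2.36 in iISC, at 1.98, 1.73 and 1.77 in FI and at 2.07, 1.95 and 2.11 in crypt. This was at least 90-fold above MEF in iHep and at least 264-fold (FI) to 481-fold (iFIPC) above MEF in the organoids (adjusted p at most 3.89e-08). The probe lies at chr1:195167088-195167147 (mm9). Lama3, the α3 chain, spread over several log2 units within iHep, iFIPC and crypt. Its levels were -6.35 and -6.32 in MEF, -2.94, -2.40 and -5.76 in iHep and lay at -2.06, 0.28 and 0.73 in iFIPC, at -3.26, -3.56 and -3.08 in iISC, at -2.55, -2.95 and -4.40 in FI and at -4.34, -6.12 and -6.83 in crypt. Lama3 rose relative to MEF in iFIPC (5.99 ± 1.03, adjusted p = 2.34e-04), iISC (3.04 ± 1.03, adjusted p = 0.0189) and FI (3.04 ± 1.03, adjusted p = 0.0192). In iHep the difference was 2.64 ± 1.03 and missed the threshold (adjusted p = 0.0546), with iHep 3 near MEF. These values rest on the brighter probe: a second probe of Lama3 gave 0.24 for iFIPC minus MEF, 0.18 for iISC minus MEF and -0.031 for FI minus MEF, and in the comparisons of iFIPC below it gave 0.29 against iHep, 0.27 against FI and 0.06 against iISC. Leaving out MEF 1, or the averaged MEF sample, ended the calls in iISC and FI, as did normexp background correction, and leaving out FI 1 ended that in FI.

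Lama5, the α5 chain of most epithelial basement membranes, followed neither pattern. It was at 0.58 and 1.48 in MEF and at 3.12, 3.52 and 3.78 in iHep, and lay at 2.61, 2.67 and 2.74 in iFIPC, at 0.41, -0.09 and 1.76 in iISC, at 2.77, 3.21 and 2.09 in FI and at 0.84, -1.34 and -0.79 in crypt. Relative to MEF it was higher in iHep (2.44 ± 0.61, adjusted p = 0.00617), iFIPC (1.64 ± 0.61, adjusted p = 0.0323) and FI (1.66 ± 0.61, adjusted p = 0.0292). It was lower in crypt (-1.46 ± 0.61, adjusted p = 0.0484) and not called in iISC (-0.33 ± 0.61, 95% interval -1.66 to 0.99). With 2 MEF samples these Lama5 calls are fragile: the iHep call was lost without MEF 1, the iFIPC call without MEF 1 or any 1 iFIPC sample, the FI call without MEF 1, FI 1 or FI 2, and the crypt call without either MEF sample, crypt 2 or crypt 3, with median scaling, with no filter on dim genes, or with only crypt and MEF in the fit.

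The other laminin chains were lower in the organoids, 2 of them to below detection. Lama2, the α2 chain of muscle and mesenchymal basement membranes, was at -0.64 and -0.28 in MEF and at -2.28, -1.5 and -3.29 in iHep. No organoid array was well above background for it, with levels at -8.63, -7.80 and -8.64 in iFIPC, at -8.34, -7.87 and -7.34 in iISC, at -8.08, -8.86 and -8.40 in FI and at -8.91, -8.28 and -8.43 in crypt. Lama2 was lower in iHep (-1.90 ± 0.46, adjusted p = 0.00518) and at least 50.7-fold (iISC) to 90.3-fold (FI) lower in the organoids (adjusted p at most 1.90e-08). Lama1, the α1 chain of early embryonic basement membranes, was above background on MEF arrays alone, at -4.92 and -4.00. It was at -7.94, -8.25 and -8.29 in iHep and lay at -8.79, -8.15 and -8.93 in iFIPC, at -8.57, -7.85 and -8.22 in iISC, at -8.99, -8.96 and -9.16 in FI and at -8.89, -8.43 and -8.73 in crypt, which puts MEF at least 3.02-fold above iHep and at least 3.17-fold (iISC) to 5.64-fold (FI) above the organoids. With normexp background correction the log2 change of Lama1 in iHep was -0.76, under the size required, and that call was lost. Lama4, the α4 chain of vascular and mesenchymal basement membranes, was at 3.11 and 2.21 in MEF, at 0.36, -0.49 and -0.63 in iHep and at -6.42, -5.21 and -7.72 in iFIPC, at -7.69, -5.15 and -8.34 in iISC, at -7.59, -9.10 and -8.94 in FI and at -9.03, -8.29 and -6.51 in crypt. It was lower in iHep (-2.91 ± 0.98, adjusted p = 0.0284), a call lost without MEF 1, without the averaged MEF sample, or without any 1 iHep sample except iHep 1. In the organoids the log2 change of Lama4 was -9.11 ± 0.98 (iFIPC), -9.72 ± 0.98 (iISC) and -10.60 ± 0.98 (crypt), and it was at least 783-fold lower in FI, where no array was above background. Lama4 was above background on 2 iFIPC arrays, 1 iISC array and 1 crypt array, so the sizes of these changes depend on dim signals.

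Lamb1-1 (now Lamb1), Lamb2 and Lamc1 encode the β1, β2 and γ1 chains shared by many laminins. Lamb1-1 was at 3.69 and 3.89 in MEF, at 1.03, -0.21 and 0.43 in iHep and at -2.79, -0.95 and -0.94 in iFIPC, at -3.67, -2.81 and -3.83 in iISC, at -2.06, -1.71 and -1.80 in FI and at -2.76, -3.40 and -3.84 in crypt. Its log2 change was -3.37 ± 0.54 in iHep (adjusted p = 2.59e-04) and ran from -5.35 ± 0.54 (iFIPC) to -7.23 ± 0.54 (iISC) in the organoids. Lamb2 was at 3.44 and 3.25 in MEF, at 4.47, 4.25 and 3.72 in iHep and at 1.91, 1.01 and 1.03 in iFIPC, at -0.46, -0.41 and 0.80 in iISC, at 1.29, 1.22 and -0.036 in FI and at -0.77, -2.82 and -2.13 in crypt. iHep and MEF were not called apart (0.80 ± 0.59, 95% interval -0.47 to 2.06), while Lamb2 was lower than in MEF in every organoid group, from -2.03 ± 0.59 (iFIPC) to -5.25 ± 0.59 (crypt) on the log2 scale. Lamc1 was at 4.69 and 4.01 in MEF, at 4.19, 4.07 and 3.46 in iHep and at 2.72, 2.29 and 2.30 in iFIPC, at 1.56, 1.61 and 1.45 in iISC, at 2.47, 2.45 and 2.56 in FI and at 1.29, 1.0 and 1.08 in crypt. Again iHep was not called apart from MEF (-0.45 ± 0.24, 95% interval -0.96 to 0.068), and the organoids were lower, from -1.86 ± 0.24 (FI) to -3.23 ± 0.24 (crypt). The adjusted p of these organoid changes was at most 0.00851 for Lamb2 and 1.54e-05 for Lamc1. The Lamb2 call in iFIPC was lost without MEF 1. Lamc3, the γ3 chain, was above background on at most 2 arrays of a group except FI, and was called in no comparison.

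Among integrins of collagen and RGD ligands, the fibroblast forms fell. Itga11, the α chain of a fibroblast collagen receptor, was at 4.52 and 5.16 in MEF and at -0.50, -2.00 and -4.50 in iHep. In the organoids it lay at -5.11, -7.97 and -6.03 in iFIPC, at -6.87, -7.66 and -7.92 in iISC, at -4.92, -8.75 and -6.92 in FI and at -8.69, -8.29 and -8.56 in crypt. The log2 change of Itga11 was -7.18 ± 1.16 in iHep, -11.21 ± 1.16 in iFIPC and -11.71 ± 1.16 in FI. It was above background on 2 iFIPC arrays and 1 FI array, so the sizes in these groups depend on dim signals. In iISC and crypt, where no array was above background, Itga11 was at least 2002-fold and 2842-fold lower (adjusted p at most 2.92e-04 over the 5 groups). The probe lies at chr9:62631667-62631726 (mm9). Itga1, the other collagen receptor α chain with signal in every group, was called in no comparison. Its levels ranged from -3.60 to -1.41 over the 17 samples, and another, dimmer probe was higher in organoids than in MEF (-5.17 in MEF and -3.90 to -3.18 in the 4 organoid groups, as group means). Itga10 was above background on every iHep array (-5.17, -5.95 and -5.18) and on 2 MEF arrays. It was at least 2.19-fold higher in iHep than in iFIPC and at least 1.61-fold higher than in iISC, with MEF at -6.52 and -5.16 and the organoids at -7.70, -8.34 and -7.16 in iFIPC, at -6.64, -8.03 and -8.42 in iISC, at -7.39, -6.41 and -7.25 in FI and at -7.02, -7.32 and -6.52 in crypt. With normexp background correction the log2 changes against iHep were -0.81 in iFIPC and -0.72 in iISC, and both calls were lost.

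Itga8, an RGD-binding α chain that recognises nephronectin, was at 1.55 and 2.69 in MEF and at -0.42, -0.59 and -2.50 in iHep. Of the organoids iFIPC alone was above background, with levels at -3.72, -5.88 and -4.66 in iFIPC, at -8.67, -7.95 and -8.31 in iISC, at -9.10, -9.07 and -9.27 in FI and at -9.00, -8.54 and -8.83 in crypt. It fell in iHep (-3.29 ± 0.63, adjusted p = 0.00109) and iFIPC (-6.88 ± 0.63, adjusted p = 8.99e-07), and was at least 303-fold (iISC) to 540-fold (FI) lower in the others. Itga5, the α chain of the main fibronectin receptor, was at 0.89 and 1.44 in MEF, at 0.55, 0.74 and -0.66 in iHep and at -4.16, -4.60 and -3.94 in iFIPC, at -5.88, -6.40 and -7.34 in iISC, at -5.03, -5.72 and -5.46 in FI and at -6.09, -5.92 and -5.60 in crypt. iHep was not called apart from MEF (-0.95 ± 0.45, 95% interval -1.92 to 0.022), whereas the organoids were lower than MEF, from -5.40 ± 0.45 (iFIPC) to -7.70 ± 0.45 (iISC). Of the iISC arrays 1 was well above background for Itga5. Against iHep the log2 change was -4.44 ± 0.40 in iFIPC and -6.75 ± 0.40 in iISC. Itgav, the αv chain, was at 1.15 and 1.56 in MEF, at 0.077, 0.10 and -0.058 in iHep and at -0.74, -0.36 and 0.047 in iFIPC, at -2.13, -1.91 and -1.80 in iISC, at -1.43, -1.55 and -1.5 in FI and at -2.33, -2.19 and -2.58 in crypt. It was lower in all 5 groups, with log2 changes from -1.31 ± 0.21 in iHep to -3.72 ± 0.21 in crypt (adjusted p at most 2.90e-04).

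Of the β chains that pair with these, Itgb5, an αv partner, was at 6.80 and 6.85 in MEF, at 5.56, 5.42 and 5.44 in iHep and at 3.19, 3.18 and 3.23 in iFIPC, at 2.77, 2.69 and 3.22 in iISC, at 3.13, 2.64 and 2.39 in FI and at 2.29, 1.98 and 2.20 in crypt. MEF, iHep and the organoids formed 3 levels with no overlap, and Itgb5 fell, with log2 changes of -1.35 ± 0.21 in iHep and from -3.63 ± 0.21 (iFIPC) to -4.67 ± 0.21 (crypt) in the organoids (adjusted p at most 1.79e-04). Itgb1, the β chain shared by most matrix integrins, was at 3.60 and 4.49 in MEF, at 2.24, 2.30 and 2.30 in iHep and at 1.31, 1.49 and 1.5 in iFIPC, at 1.25, 1.18 and 1.36 in iISC, at 1.42, 1.31 and 1.33 in FI and at 0.97, 1.1 and 0.87 in crypt. Its levels also lay in 3 steps, with log2 changes against MEF from -1.76 ± 0.20 in iHep to -3.06 ± 0.20 in crypt (adjusted p at most 1.43e-05). The step below iHep was smaller than for Itgb5. iFIPC was not called apart from iHep, and iISC differed from it by -1.02, within the largest spike-in shift. A second bright probe of Itgb1 had group means of 0.10 in iHep and -0.13 (iFIPC) to -0.61 (crypt) in the organoids. Itgb8, another αv partner, was at -3.11 and -4.35 in MEF, at -4.42, -4.36 and -6.45 in iHep and at -7.91, -8.38 and -9.11 in iFIPC, at -8.65, -8.04 and -8.41 in iISC, at -9.19, -9.16 and -6.97 in FI and at -9.09, -8.71 and -8.96 in crypt, with 1 organoid array above background. It was not called in iHep (-1.34 ± 0.72), was lower in FI (-4.71 ± 0.72), and was at least 5.25-fold (iISC) to 7.46-fold (crypt) lower in the other 3 organoid groups.

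Itgb3, the β chain of the vitronectin receptor on fibroblasts and platelets, gave different answers by probe. The brightest probe, used by the rule, lay between -0.83 and 0.69 in all 17 samples and was called in no comparison, with a log2 change of 0.91 ± 0.20 in iFIPC against MEF that was called higher under median scaling. The other probe, for the RefSeq transcript, was at 2.24 and 2.39 in MEF and at 1.48, 1.5 and 0.76 in iHep. On it iFIPC lay at -7.70, -4.90 and -8.79, and the other 9 organoid samples between -9.03 and -7.69. In a fit with this probe, an alternative chosen after seeing the data, Itgb3 was lower than MEF in iFIPC (-9.44 ± 0.80, limma adjusted p = 4.27e-07) and by at least 347-fold in iISC, 617-fold in FI and 492-fold in crypt. The iHep change was -1.07 ± 0.80 and was not called. Which probe measures the gene was not tested, and counts of calls here use the brightest one.

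The falls in the integrins and laminins that were highest in MEF ran beside those of fibroblast markers as a whole. The mean level over the 11 fibroblast markers was 5.30 and 4.94 in MEF, 0.411 to 2.18 in iHep, -5.40 to -2.34 in iFIPC, -6.43 to -5.92 in iISC, -7.27 to -5.11 in FI and -6.86 to -6.74 in crypt. In crypt 7 of the 11 were above background on no array (Col1a1, Col3a1, Pdgfra, Thy1, Dcn, Lum and Twist1), and in iFIPC 7 of 11 were above background on every array. The mean over the 10 epithelial markers moved the opposite way, from -4.94 and -4.64 in MEF to 2.78 to 3.57 in iHep and 4.72 to 5.37 in the organoids. In RNA from a whole culture fewer cells of a type and less RNA per cell cannot be told apart, and the part of either marker set in the members' changes was not tested.

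**Figure D3:**
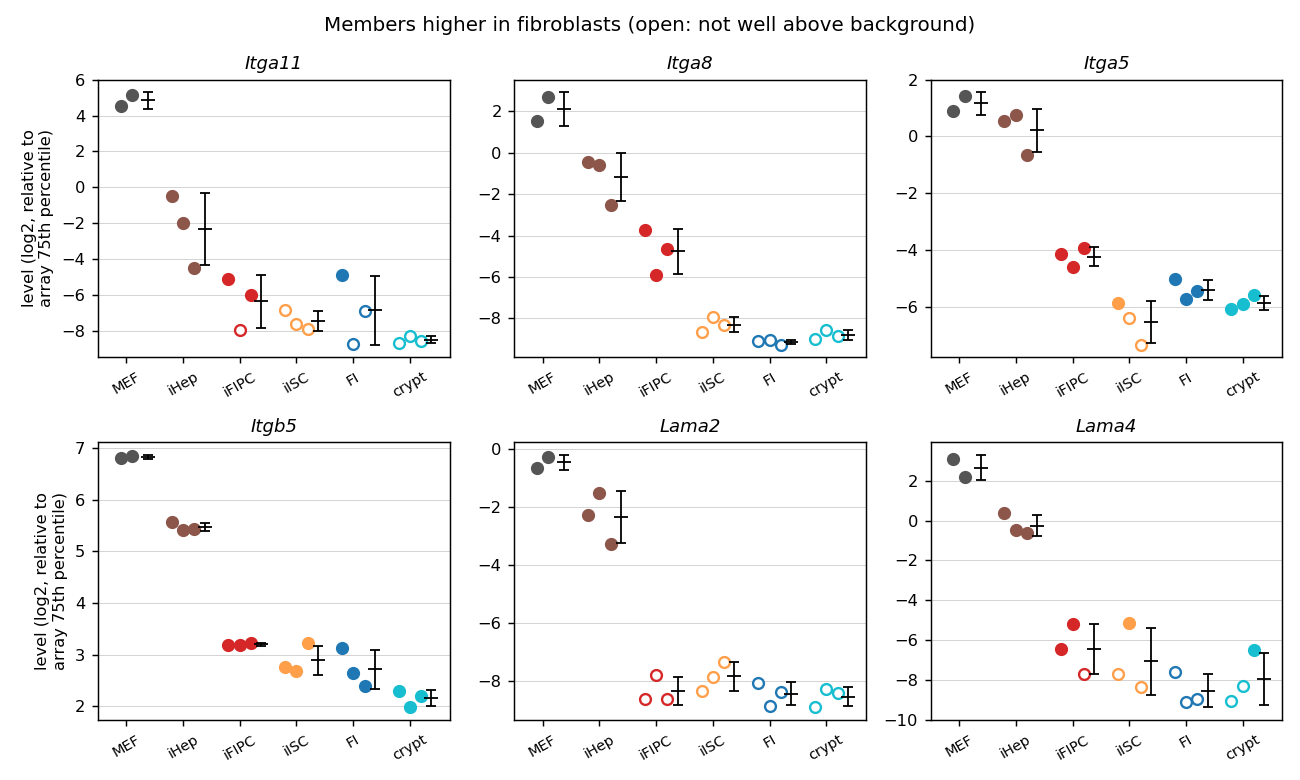
Levels (log2 relative to the array's 75th percentile) of 6 members in each sample; open circles are samples with an array not well above background, and bars are the group mean and SD (n = 2 in MEF, 3 elsewhere). MEF is highest in every panel, iHep lies between or, for Itga5, beside MEF, and iFIPC is the one organoid group with filled circles for Itga8.

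Among members tied to leukocytes, the β2 chain was highest in MEF and the β7 chain in FI, and 4 α chain genes were not called. Itgb2, the β chain of the leukocyte integrins, was at -2.85 and -2.42 in MEF, at -5.62, -5.48 and -5.22 in iHep and at -5.38, -5.32 and -5.09 in iFIPC, at -5.46, -5.87 and -5.86 in iISC, at -6.16, -5.89 and -5.45 in FI and at -6.16, -5.25 and -5.32 in crypt. It was lower in all 5 groups, from -2.63 ± 0.28 (iFIPC) to -3.20 ± 0.28 (FI) (adjusted p at most 5.19e-06). All 8 other leukocyte markers, among them Ptprc and Adgre1, were above background on every MEF array, with mean levels of -2.20 and -1.54, against -6.55 to -5.46 in the other 15 samples, and Adgre1 was above background on no array of those 15; their part in the Itgb2 change was not tested. Itgb7, the β chain that pairs with α4 and αE, was at -2.88 and -3.37 in MEF, at -5.36, -4.66 and -5.40 in iHep and at -4.12, -4.28 and -4.05 in iFIPC, at -4.53, -5.31 and -4.75 in iISC, at -2.35, -2.39 and -2.73 in FI and at -3.76, -4.24 and -4.04 in crypt. It was lower in iHep (-2.01 ± 0.27), iISC (-1.73 ± 0.27) and iFIPC (-1.02 ± 0.27), and not called in FI (0.64 ± 0.27) or crypt (-0.89 ± 0.27, adjusted p = 0.0112). The iFIPC call held in 9 of 16 alternatives and was lost with normexp, quantile or median scaling, 18 separate arrays or the replicate block, and without MEF 1 or iFIPC 2. The αL, αE, αM and αX genes were called in no comparison, with Itgal between -4.19 and -3.11 and Itgae between -5.76 and -4.74 over all samples.

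Itga4, an α chain that binds Vcam1 and fibronectin, was at -3.05 and -1.88 in MEF, at -2.96, -1.96 and -5.60 in iHep and at -7.56, -6.29 and -6.74 in iFIPC, at -5.82, -6.35 and -6.96 in iISC, at -6.23, -5.24 and -5.03 in FI and at -6.0, -7.62 and -6.23 in crypt. iHep 3 stood below the other 2 iHep samples, iHep was not called apart from MEF (-1.04 ± 0.87, 95% interval -2.93 to 0.84), and every organoid group was lower than MEF. The log2 change was -3.04 ± 0.87 in FI, -3.91 ± 0.87 in iISC and -4.15 ± 0.87 in crypt, and Itga4 was at least 16.7-fold lower in iFIPC. Itga4 was above background on 1 iISC array and 2 crypt arrays. The FI call was lost without the averaged MEF sample. Itga9, a related α chain that binds tenascin, was at -1.20 and -0.82 in MEF, at -4.39, -2.39 and -4.01 in iHep and at -4.94, -6.20 and -4.75 in iFIPC, at -5.12, -3.96 and -5.29 in iISC, at -5.06, -4.22 and -3.96 in FI and at -4.23, -5.14 and -5.23 in crypt. It fell in iHep (-2.59 ± 0.63, adjusted p = 0.00483) and in the organoids, from -3.40 ± 0.63 (FI) to -4.29 ± 0.63 (iFIPC). Itga2b, the αIIb chain of platelets, was at -3.01 and -3.32 in MEF, at -4.18, -4.15 and -3.96 in iHep and at -6.61, -6.49 and -6.26 in iFIPC, at -5.97, -6.80 and -5.08 in iISC, at -5.33, -5.61 and -5.82 in FI and at -5.54, -5.60 and -5.13 in crypt, and was lower than MEF in the organoids, from -2.26 ± 0.36 (crypt) to -3.29 ± 0.36 (iFIPC). Itga2b was above background on 1 iFIPC array and 2 iISC arrays. Of 3 platelet markers, Gp9 and Gp1ba were above background on no MEF or iHep array. Gp9 was above background on every iFIPC and FI array and was called higher than MEF in both. The remaining marker, Pf4, a platelet chemokine, was above background on every MEF array (-2.42 and -1.77) and every iFIPC array (-4.91 to -2.22). Pf4 was above background on 1 iHep array and on none of iISC, FI or crypt. It was called lower than MEF in iHep, iISC, FI and crypt. Its part in the Itga2b change was not tested.

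The 4 binding-protein genes did not move together. Itgb1bp1, whose product binds the tail of the β1 chain, was at 2.75 and 2.37 in MEF, at 1.3, 1.08 and 1.51 in iHep and at 0.61, 0.43 and 0.25 in iFIPC, at 0.40, 0.50 and 0.35 in iISC, at 0.39, 0.30 and 0.32 in FI and at 0.049, 0.24 and 0.39 in crypt. It was lower in all 5 groups, from -1.26 ± 0.17 in iHep to -2.33 ± 0.17 in crypt. Itgb3bp, whose product is also a centromere protein, was at -0.97 and -0.85 in MEF, at -1.43, -1.35 and -0.93 in iHep and at 0.26, 0.56 and 0.72 in iFIPC, at 1.36, 1.19 and 1.21 in iISC, at 1.33, 1.70 and 1.34 in FI and at 1.63, 0.82 and 1.14 in crypt. It was higher than MEF in the organoids by 1.42 ± 0.23 (iFIPC) to 2.36 ± 0.23 (FI) (adjusted p at most 1.59e-04) and was not called in iHep. Itgb3bp was also higher than iHep in iFIPC (1.75 ± 0.21), where a second probe gave -0.0062, so that this call rests on the brightest probe. Itgb1bp2, the muscle protein melusin, and Itgb1bp3, now named Nmrk2, passed the test's filter in no comparison, as did Itgax and Itgb2l.

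Genes of integrin signalling to actin, a list of 24 without members, were lower than MEF as a group of counts: 13 were called lower in iHep, 17 in iFIPC, 19 in iISC, 18 in FI and 19 in crypt (15.8%, 23.3%, 25.4%, 23.7% and 26.1% of all genes tested were lower in the same order), and 1 (Fermt1, the kindlin of epithelia) was called higher in each. The median log2 change of the 24 was -1.3 in iHep and -2.57 in iISC. Fermt1 was above background on no MEF array and was at least 38-fold higher in iHep and at least 241-fold in iFIPC. Its relative Fermt2, the kindlin of mesenchymal cells, fell in iFIPC (-7.19 ± 0.49) and iISC (-9.16 ± 0.49). The paxillin relative Tgfb1i1 fell in iHep (-2.65 ± 0.43) and iFIPC (-10.38 ± 0.43), and Cav1, the caveolar coat protein, in crypt (-13.25 ± 0.95). Among 16 other basement membrane genes, of which 15 were tested, 3 to 4 were called higher and 5 to 8 lower in iHep, iFIPC, iISC and FI, and 1 higher and 8 lower in crypt. Sparc, a matrix protein that binds collagen, fell in iHep (-3.58 ± 0.78) and iISC (-12.42 ± 0.78), and Col4a1, a chain of basement membrane collagen, in iFIPC (-4.98 ± 0.36) and crypt (-9.19 ± 0.36). Bcam, a receptor for the laminin α5 chain, rose by 2.89 ± 0.67 in iHep. Of the hemidesmosome genes, Cd151, a membrane partner of laminin-binding integrins, rose by 1.54 ± 0.19 in iHep and Plec, the plectin gene, fell (-1.31 ± 0.22). Of the 4 in this list, 2 were called higher and 2 lower in iFIPC, and 1 higher and 2 lower in iISC. In FI and in crypt 0 were called higher and 2 lower. Over all genes 20.2% (iFIPC), 23% (iISC), 23.3% (FI) and 24.2% (crypt) were called higher. Among 11 integrin ligands other than laminins, 9 of 9 tested were called lower in iISC and 9 of 10 in crypt. Fn1, the fibronectin gene, was at least 5136-fold lower in iISC and fell in iFIPC (-6.84 ± 0.79).

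Set against iHep, the organoids carried less of most matrix integrins and laminins and more of a few epithelial ones. In iFIPC 22 of 33 members tested were called, 8 higher and 14 lower, beside 34% of all genes tested (17.4% higher, 16.6% lower). In iISC 21 of 33 were called, 5 higher and 16 lower, beside 39.8% (20.4% higher, 19.4% lower). Higher in both were Itga2, Itga6, Itgb3bp, Itgb6 and Lamb3, and in iFIPC also Itgb4 (1.40 ± 0.24, adjusted p = 3.21e-04) and Lama3 (3.35 ± 0.92, adjusted p = 0.00748), among others. Lamb3 was 2.42 ± 0.42 higher in iFIPC and 1.75 ± 0.42 higher in iISC. The laminin chains of iHep that resembled MEF were lower in organoids: Lamb2 in iFIPC (-2.83 ± 0.52) and iISC (-4.17 ± 0.52), and Lamc1 likewise (-1.47 ± 0.21 and -2.37 ± 0.21). Lama5 was lower in iISC (-2.77 ± 0.55, adjusted p = 6.71e-04) and not called in iFIPC (-0.80 ± 0.55, 95% interval -1.99 to 0.39). The Itgb1 call in iISC (-1.02 ± 0.18) was lost without iISC 2, with normexp, with median scaling and with the mean over its probes, a second of which gave -0.42. Under median scaling the split was 9 higher and 14 lower in iFIPC and 6 higher and 15 lower in iISC.

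The organoid arrays came from 3 slides: crypt 1 and the FI arrays shared slide 3, crypt 2, crypt 3, iFIPC 1 and iFIPC 3 shared slide 4, and iFIPC 2 and the iISC arrays shared slide 5. Differences between organoid groups are therefore given also with slide as a fixed term and, where a slide held both groups, within it.

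Between induced and native adult-type organoids no member was called. Of the 28 members tested in iISC against crypt, limma called 0, and 9 (32.1%) had an unadjusted p under 0.05. Over all 13597 genes tested 2.97% were called (1.82% higher, 1.15% lower) and 19.9% had an unadjusted p under 0.05. The laminin receptor chains were close, with a log2 difference (iISC minus crypt) of 0.05 ± 0.18 for Itga6 (95% interval -0.35 to 0.46), -0.02 ± 0.16 for Itga3 (-0.39 to 0.34) and 0.40 ± 0.19 for Itgb4 (-0.032 to 0.83). Lamb3 differed by -0.02 ± 0.24 (95% interval -0.56 to 0.51). Neither Lama3 nor Lamb2 was called, although their 95% intervals reached differences of several fold. Lama3 differed by 2.47 ± 0.82 (0.62 to 4.31, adjusted p = 0.136) and Lamb2 by 1.88 ± 0.58 (0.58 to 3.19, adjusted p = 0.11). The smallest adjusted p was that of Itgb7 (-0.85 ± 0.21, adjusted p = 0.0584). Without iISC 1, Itga7 and Itgb7 were called, and without crypt 1, Itgam and Lamb2 were. In the lists of signalling, basement membrane and ligand genes 1 gene each was called, all higher in iISC, and none of 3 hemidesmosome genes tested: Flna (1.38 ± 0.21), an actin crosslinker that binds β chain tails, Nid1 (4.37 ± 0.53), the laminin linker nidogen, and Thbs1 (2.89 ± 0.60), a matrix ligand. No slide held both groups.

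Fetal-type organoids from the intestine carried more of the α5, β2 and γ1 laminin chains than crypt organoids. In FI against crypt, 4 of 30 members tested were called, all higher in FI, beside 8.79% of all genes (5.81% higher, 2.98% lower). Lama5 was at 2.77, 3.21 and 2.09 in FI and 0.84, -1.34 and -0.79 in crypt, without overlap, a log2 change of 3.12 ± 0.59 (SE) (limma adjusted p = 0.00915). Lamb2 was at 1.29, 1.22 and -0.036 in FI and -0.77, -2.82 and -2.13 in crypt, again without overlap (2.73 ± 0.58, adjusted p = 0.0143). Lamc1 had the tightest groups, at 2.47, 2.45 and 2.56 against 1.29, 1.0 and 1.08 (1.37 ± 0.14, adjusted p = 6.73e-04). Crypt 1, which shared a slide with FI, was the crypt sample nearest to FI for all 3 genes. Within that slide the differences were 1.85 for Lama5, 1.59 for Lamb2 and 1.20 for Lamc1, and none of the 3 passed the threshold there (adjusted p = 0.284, 0.449 and 0.126, with crypt as 1 sample). With slide as a fixed term the same values held and Lamc1 was called (adjusted p = 0.0258), while Lama5 (0.259) and Lamb2 (0.347) were not. The Lamb2 call was also lost without crypt 2, crypt 3, FI 1 or FI 2. Over the alternatives the adjusted p ranged from 0.000264 to 0.126 for Lamc1, from 0.00308 to 0.284 for Lama5 and from 0.00517 to 0.449 for Lamb2. Lamb1-1 differed by 1.48 ± 0.50 and was not called (adjusted p = 0.0771), except without crypt 1 or with only FI and crypt in the fit.

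The fourth call was Itgb7, at -2.35, -2.39 and -2.73 in FI and -3.76, -4.24 and -4.04 in crypt (1.53 ± 0.21, limma adjusted p = 0.00249). It was 1.27 within slide 3 and with slide as a fixed term (adjusted p = 0.178 and 0.0913), and 0.97 with normexp, under the size required, and the range over alternatives was 0.00101 to 0.178. Of 8 leukocyte markers, 4 were above background on every FI array and 5 on every crypt array, and Ptprc, Adgre1 and Laptm5 on no array of either group. Of the 5 tested, 0 were called between FI and crypt by limma (1 at an unadjusted p under 0.05). Their part in the Itgb7 difference was not tested. Laminin receptor chains were not called apart between FI and crypt: Itga6 differed by 0.15 ± 0.18 (95% interval -0.26 to 0.55), Itgb4 by 0.17 ± 0.19 (-0.26 to 0.60) and Lamb3 by -0.22 ± 0.24 (-0.75 to 0.32). Of 15 other basement membrane genes tested, 5 were called higher (Col4a2, Nid1, Bcam, Col4a1 and Col18a1) and none lower, beside 5.81% and 2.98% of all genes. The list median was 0.69 against 0.019 over all genes. Col4a2 was at least 12.3-fold higher in FI, Nid1 2.49 ± 0.53 and Bcam 2.10 ± 0.59 higher on the log2 scale.

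**Figure D4:**
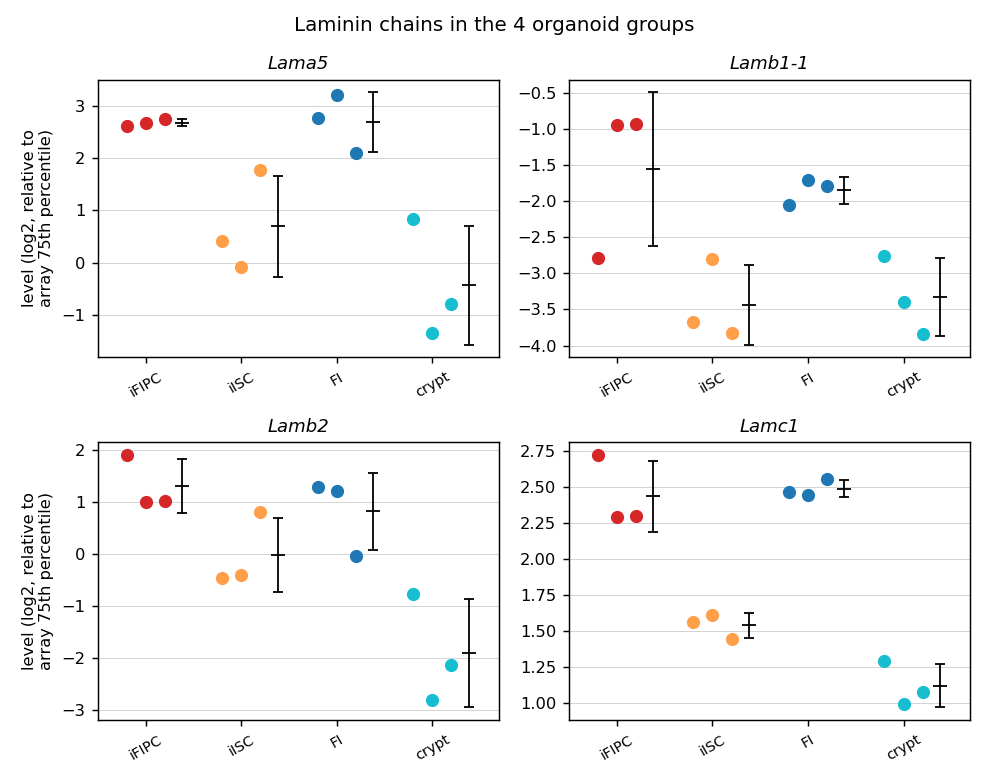
Levels (log2 relative to the array's 75th percentile) of 4 laminin chains in the 12 organoid samples, with group mean and SD (n = 3); each panel has its own scale. FI lies above crypt without overlap in all 4 panels, and crypt 1 is the highest crypt sample in each.

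The same stage comparison in induced organoids gave another set. In iFIPC against iISC, 5 of 27 members tested were called, all higher in iFIPC, beside 7.53% of all genes (4.53% higher, 3% lower). Itgav was at -0.74, -0.36 and 0.047 in iFIPC and -2.13, -1.91 and -1.80 in iISC, without overlap (1.59 ± 0.20 (SE), limma adjusted p = 0.00147). Itga5 was at -4.16, -4.60 and -3.94 against -5.88, -6.40 and -7.34 (2.31 ± 0.35, adjusted p = 0.00405). Itga5 was well above background on 1 iISC array. With normexp background correction its change was 0.62, under the size required, and the call was lost. Itga8, not above background in iISC, was at least 2.58-fold higher in iFIPC (adjusted p = 0.00157). Lamb1-1 (1.88 ± 0.50, adjusted p = 0.0397) and Lama3 (2.95 ± 0.82, adjusted p = 0.0467) lay near the threshold. Within slide 5, where iFIPC 2 stood beside the 3 iISC samples, the differences were 1.58 for Itgav, 1.94 for Itga5, 2.48 for Lamb1-1 and 3.58 for Lama3, none of them called (adjusted p from 0.0525 to 0.459). Itga8 differed by 2.43 within that slide and was not called either (adjusted p = 0.166), and with normexp background correction its change was 0.67, under the size required. With slide as a fixed term the Itgav and Itga8 calls held (adjusted p = 0.0487 and 0.0270), and those of Itga5 (0.123), Lamb1-1 (0.129) and Lama3 (0.158) did not. Lama3 and Lamb1-1 also lost their calls without iISC 1, iISC 3, iFIPC 2 or iFIPC 3, and Lama3 without iISC 2, and the mean over a gene's probes ended the calls of Itgav and Lama3. Over the alternatives the adjusted p ranged from 0.000754 to 0.169 for Itgav, 0.00394 to 0.459 for Itga5, 0.00590 to 0.243 for Lamb1-1 and 0.0190 to 0.158 for Lama3.

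The laminin chains that separated FI from crypt pointed the same way in the induced pair without passing the test. Lama5 differed by 1.97 ± 0.59 (iFIPC minus iISC, 95% interval 0.64 to 3.31, adjusted p = 0.0596) and Lamb2 by 1.34 ± 0.58 (95% interval 0.035 to 2.64, adjusted p = 0.164). Lamc1 differed by 0.90 ± 0.14 with adjusted p = 0.00483, under the size required for a call. A test of the difference between the 2 stage changes called none of Lama5 (-1.14 ± 0.84, adjusted p = 0.417), Lamb2 (-1.39 ± 0.82, adjusted p = 0.31) and Lamc1 (-0.47 ± 0.20, adjusted p = 0.174). Of the 31 members in that test Itga8 alone was called (3.91 ± 0.62, adjusted p = 0.0127), beside 4.48% of all genes (1.67% higher, 2.81% lower). With 3 of the 4 groups not above background for Itga8, this value rests on iFIPC.

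Induced fetal-type organoids also differed from native ones in integrin α chains that were highest in MEF. In iFIPC against FI, 5 of 31 members tested were called, 4 higher (Itga5, Itga8, Itgav and Lama3) and 1 lower (Itgb7), beside 10.4% of all genes (5.5% higher, 4.85% lower). Itga8 was at -3.72, -5.88 and -4.66 in iFIPC and -9.10, -9.07 and -9.27 in FI, where no array was above background, so that it was at least 4.59-fold higher (limma adjusted p = 4.94e-04). Itgav was at -0.74, -0.36 and 0.047 against -1.43, -1.55 and -1.5 (1.14 ± 0.20, adjusted p = 0.00525) and Itga5 at -4.16, -4.60 and -3.94 against -5.03, -5.72 and -5.46 (1.17 ± 0.35, adjusted p = 0.0394), both without overlap. Lama3 was 2.95 ± 0.82 higher (adjusted p = 0.0311), with iFIPC 1 near the FI samples. Itgb7 was at -4.12, -4.28 and -4.05 in iFIPC and -2.35, -2.39 and -2.73 in FI (-1.66 ± 0.21, adjusted p = 0.00147). No slide held both groups, and with slide as a fixed term the Itga8 call alone held (adjusted p = 0.0128), while the adjusted p of the other 4 lay between 0.180 and 0.514. The Itga5 call was lost on leaving out any of the 3 iFIPC samples, FI 2 or FI 3, the Lama3 call without iFIPC 2, iFIPC 3, FI 2 or FI 3, and the Itgav call without iFIPC 3 or with the mean over a gene's probes. Over the alternatives the adjusted p ranged from 0.000104 to 0.0137 for Itga8, 0.00212 to 0.232 for Itgav, 0.00825 to 0.514 for Itga5, 0.0119 to 0.180 for Lama3 and 0.000413 to 0.222 for Itgb7. The Itga8 call was nevertheless lost with normexp, where the change was 0.94, and Itga8 was not tested where both groups had to be above background. The Itga5 call was lost with normexp too, where its change was 0.52.

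**Figure D5:**
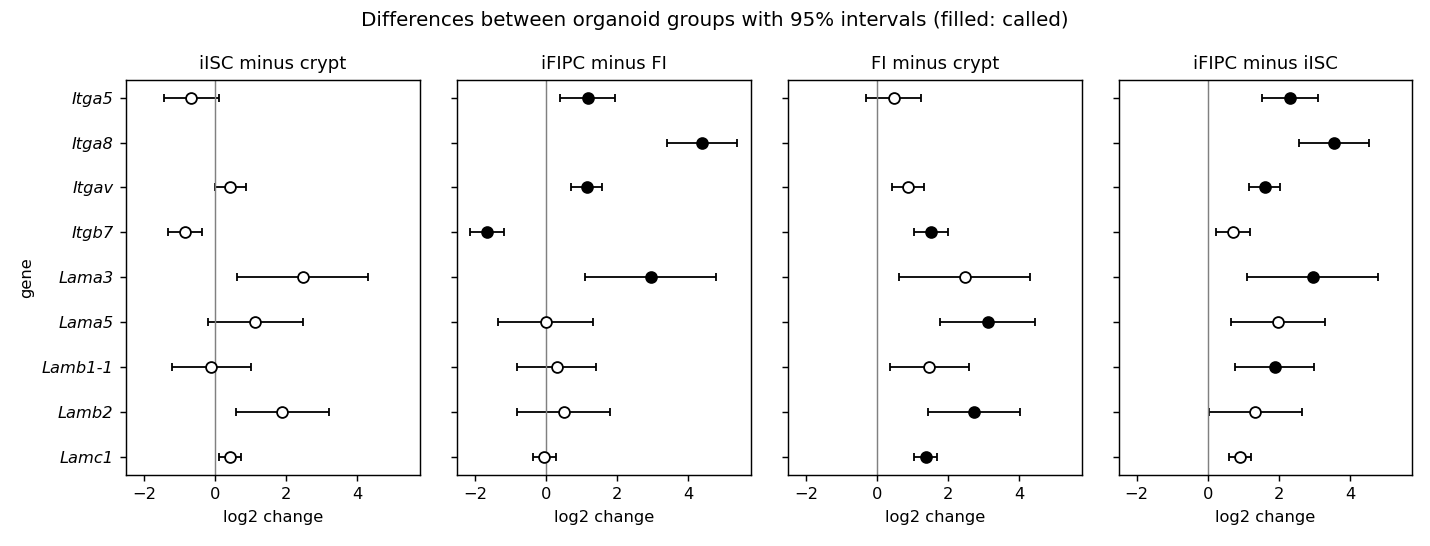
Log2 change (x axis) of the 9 members called in at least 1 of 4 comparisons between organoid groups, with the 95% interval of the fit; filled circles are called at adjusted p under 0.05 and a change of at least 1. A missing point (Itga8) was not tested; no circle is filled in iISC minus crypt, and the filled ones in FI minus crypt are Itgb7, Lama5, Lamb2 and Lamc1.

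The mean level over the 11 fibroblast markers was -3.39, -2.34 and -5.40 in iFIPC 1, 2 and 3, against -5.11, -7.18 and -7.27 in FI and -6.43 to -5.92 in iISC. Of these markers 2 of 7 tested were called higher in iFIPC than in FI, beside 5.5% of all genes. Against iISC 3 of 8 were called higher and 1 lower, beside 4.53% and 3% of all genes. On the marker mean iFIPC 3 lay below FI 1. Itga8 was at -3.72, -5.88 and -4.66 in iFIPC 1, 2 and 3. The part of these markers in the higher Itga8, Itga5 and Itgav was not tested. Among epithelial chains, Itgb4 was higher than in FI by 0.98 ± 0.19 (adjusted p = 0.00896) and Lamb3 by 0.87 ± 0.24 (adjusted p = 0.0304), both under the size required for a call. Of 8 integrin ligands other than laminins tested, 6 were called higher in iFIPC than in FI and 1 lower (Egfl6, -1.96 ± 0.41, named after its value was seen). Over all genes tested in this comparison, 5.5% were called higher and 4.85% lower. Fn1 was 6.11 ± 0.73 higher (adjusted p = 0.00114), Tnc, the tenascin gene, at least 6.75-fold higher, Vcam1 at least 11.6-fold higher, and Spp1, the osteopontin gene, 7.49 ± 2.01 higher. In the other lists 5 of 15 basement membrane genes were called higher, led by Col18a1 (3.63 ± 0.54), 2 of 22 signalling genes (Cav1, 4.67 ± 0.97, and Fermt2, 1.80 ± 0.47) and 1 of 4 hemidesmosome genes, Col17a1 (6.56 ± 1.70, adjusted p = 0.0241), a transmembrane collagen of hemidesmosomes.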

How the data were processed

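RNA of 18 C57BL/6 samples in 6 groups was measured on one-colour Agilent arrays. The deposited files hold the scanner's spot intensity per probe (processed signal, mean signal and background median) with background and outlier marks, per the file headers, and the submitters' processing notes name Feature Extraction 9.5.1.1. Outlier spots were left out and spots averaged per probe. The processed signal was taken to log2 and the array's 75th percentile subtracted. A gene is represented by its brightest probe. The 2 near-identical MEF arrays were averaged, leaving 17 samples. limma 3.58.1 (R 4.3.3, lmFit and eBayes) was fitted to all genes, over 17 samples for comparisons with MEF or iHep and over the 12 organoid samples otherwise, with Benjamini-Hochberg adjustment over all genes tested. The code was tested on simulated data. "At least" folds set the mean of the brighter group against, per array of the dimmer group, the higher of the probe's signal and the lowest signal well above background.

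Members, gene lists and marker lists were chosen with earlier results of these data known. Values in every sample are given for each member called at least once except 1 that is not reported here (counts over members include it), other members by range and count, and up to 4 called genes with the largest change per comparison of each list (signalling to actin, basement membrane, hemidesmosome, other ligands). Alternatives were normexp background correction, quantile and median scaling, the filter on dim genes, the groups in the fit, 18 separate arrays, slide, replicate number, the mean over a gene's probes, leaving out each sample, and, chosen after seeing the data, the other Itgb3 probe. Promoters came from RefSeq. Exon and intron annotation of the mm9 probe positions was not analysed here, and the number of arrays limits the precision.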

Additional observations from a re-analysis of the deposited data

Results flagged for a closer look

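Itga8 differed between the induced and the native stage comparison: the change from iISC to iFIPC exceeded that from crypt to FI by 3.91 ± 0.62 on the log2 scale (SE, limma interaction term, adjusted p = 0.0127). It was higher in 3 of 3 iFIPC samples than in every other organoid sample. The other 3 groups were not well above background on any array, so the value depends on how dim signals are treated: with normexp background correction it was 0.84 (adjusted p = 0.0391), under the required change of 1, and with slide as a fixed term it was 2.57 (adjusted p = 0.131).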

How the results depend on the processing

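Between organoid groups the counts of members called rest on few samples and on the slide. No called member reversed its direction under any alternative run. Itgb3, not called on its brightest probe (0.91 in iFIPC against MEF), turned to -9.44 and was called lower on its other probe, and its sign turned likewise in iHep, iISC and FI against MEF and in both comparisons with iHep. Of the single values called against MEF or iHep, 2798 recomputations kept their call and 83 lost it, and between organoid groups 200 kept it and 65 lost it. Within 1 slide, 10 members were called in iHep against MEF, 0 in FI against crypt and 0 in iFIPC against iISC, with 1 sample in a group. With slide as a fixed term, counts were 1 in iFIPC against FI, 1 in FI against crypt, 2 in iFIPC against iISC and 0 for the difference of stage changes. Testing only genes above background in both groups removes members absent from 1 group: against MEF 18 were called in iFIPC, 15 in iISC, 19 in FI and 17 in crypt, against iHep 14 in iFIPC and 12 in iISC, then 2 in iFIPC against iISC and 0 for the difference of stage changes. With normexp, 3 members were called in iFIPC against FI and 0 for the difference of stage changes. Averaging a gene's probes gave 1 call in iISC against crypt. In iFIPC against iISC, 3 were called with no filter on dim genes, and 3 with only the 2 groups in the fit; apart from the filters and smaller fits, which test fewer or more genes or samples, the cause was not tested.

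The replicate numbers do not pair the samples: deviations of same-numbered samples correlated between -0.41 and 0.38 over 12529 genes. With the replicate block, 3 members were called in iFIPC against FI and 3 in iFIPC against iISC, and the other counts stayed within 1.5 times.

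Leaving out 1 sample at a time gave 18 to 20 calls in iHep, 27 to 31 in iFIPC, 28 to 29 in iISC, 27 to 29 in FI and 26 to 31 in crypt against MEF, and 21 to 22 in both comparisons with iHep. Between organoids it gave 0 to 2 calls in iISC against crypt (2 without iISC 1 or crypt 1), 3 to 7 in iFIPC against FI (3 without iFIPC 2), 3 to 7 in FI against crypt (7 without crypt 1), 3 to 5 in iFIPC against iISC (3 without iISC 1, iFIPC 2 or iFIPC 3), and 1 to 3 for the difference of stage changes (2 without iISC 1, adding Itga5, and 3 without crypt 1, adding Itga5 and Itgb3bp). A slide term could not be fitted for organoids against MEF or iHep, and within-slide fits were possible only where a slide held both groups. The difference of stage changes with only its own groups was not run, since it uses all 4.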
